A study of Mus musculus with 8 samples.

Results

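Complexes II to V of the mitochondrial respiratory chain were followed in mouse ventricular heart through the messenger RNAs of their parts. The members were the genes of the deposited expression table whose names start with the succinate dehydrogenase, Uqcr, Cox or Atp5 stems, together with Cyc1, Cycs and the mitochondrially encoded cytochrome b, cytochrome oxidase and ATP synthase genes. This name rule found 66 of 13677 genes, and all 66 passed the filter on low values and were among the 13544 genes tested. By role they comprise 46 nuclear-encoded subunits, cytochrome c (Cycs), 13 assembly factors and 6 subunits encoded by mitochondrial DNA. Complex I, whose genes carry other names, is not among them.

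The series holds 3 libraries named C, 2 named KO and 3 named DKO, all of ventricular heart tissue from mice with no treatment. The study's title speaks of Vhl-deficient and wild-type ventricle in a Wt1-Cre model, and the protocol text names Vhl-KO and WT mice. The labels do not spell out C, KO and DKO, do not say what second change DKO carries, and give no age, sex or strain. Cre driven by Wt1, a gene of the epicardium and its progenitors, acts in that lineage and its descendants, so a piece of ventricle mixes cells with and without Cre. VHL is the part of a ubiquitin ligase that recognises hypoxia-inducible factor (HIF) for destruction, and cells without it keep HIF active at normal oxygen. Vhl itself had a signal of 8.97, 7.50 and 7.26 in C, 8.33 and 8.96 in KO and 11.2, 10.9 and 8.61 in DKO, so its transcript was not lower in the libraries named KO or DKO (limma adjusted p = 0.708 and 0.589 against C, log2 fold changes 0.12 and 0.33). A level for the whole gene also counts reads from exons that a deletion may leave, so it does not check the labels. Nothing in the labels ties the libraries to separate animals, and a p-value here weighs a difference only against the spread of libraries within a group, which may be technical.

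The respiratory chain passes electrons from food to oxygen and stores the energy as a proton gradient across the inner mitochondrial membrane. Complex II (succinate dehydrogenase) feeds electrons from the citric acid cycle into ubiquinone, complex III (cytochrome bc1) hands them to cytochrome c, complex IV (cytochrome c oxidase) gives them to oxygen, and complex V (ATP synthase) lets protons flow back to make ATP. Complexes III, IV and V join subunits from the nuclear and the mitochondrial genome, whereas complex II is wholly nuclear-encoded, and heart muscle, which beats without pause, is among the tissues richest in all of them.

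Signal in the deposited table is reads relative to an effective library size, on the scale of CPM, so a value does not account for transcript length. Libraries held 15028176 to 21202385 reads. The library named DKO 2 stood apart: transcripts of the mitochondrial genome took 41.6% of its reads, against 22.9% to 29.9% in the other DKO and the C libraries and 16.2% and 17.4% in KO. The deposited scaling factors were 0.925 to 0.964 in C, 1.36 and 1.37 in KO and 0.705 to 1.06 in DKO. Taking these factors out moved the median log2 fold change of all tested genes from 0.01 to 0.48 in KO against C and from 0.01 to -0.57 in DKO against KO, and results are given relative to the scaled median. Ventricular muscle markers were high in all libraries and their summed signal was lower in KO: the 10 cardiomyocyte genes (among them Myh6, Tnnt2 and Myl2) summed to 74881 to 78300.1 in C, 44092 to 50198 in KO and 44203 to 73739 in DKO, and 1 of the 10, Tnni3, fell in KO (limma adjusted p = 0.0211, log2 fold change -1.31). These markers did not all go one way: 8 of the 10 were below every C library in both KO libraries, Ryr2 overlapped C, and Actc1, at 6029, 7052 and 6425 in C and 7865 and 8892 in KO, was above every C library (log2 fold change 0.37, limma adjusted p = 0.593). Skeletal muscle markers other than Ckm, such as Myh4 and Actn3, summed to 63.7 to 435 in C, 0.693 to 1.18 in KO (Myh2 and Myh4 at 0 reads) and 3.57 to 14.0 in DKO, and 8 of 8 were lower in KO and 7 of 8 in DKO than in C. The 7 fibroblast markers summed to 379 to 596 in C, 755 to 973 in KO and 409 to 962 in DKO, and 2 of 7 were higher in KO. The 4 epicardial markers in the table summed to 3.43 to 8.44 in C, 13.2 to 19.8 in KO and 5.53 to 8.97 in DKO. Of these 2 were higher in KO. The 4 atrial markers summed to 236 to 565 in C, 1627 to 2487 in KO and 213 to 431 in DKO. Of these 1 was higher in KO, and their median log2 fold change was -0.28. Beside these counts, 7.01% of all 13544 tested genes were called lower and 6.9% higher in KO against C. In DKO against C 0.0812% of them (11 genes) were called lower. The part of these cell types in the results on the respiratory genes was not tested.

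In KO ventricle most parts of complexes III, IV and V fell, while 3 of the 4 subunits of complex II did not pass the test. The members that fell stood at 20.7% to 63.6% of the C mean. Of the 66 members, 37 fell and 1 rose (Cox15) in KO against C at a limma adjusted p under 0.05, and 28 did not pass. Over all 13544 tested genes 7.01% were called lower and 6.9% higher, so that 56.1% of the members against 7.01% of genes fell. The median log2 fold change of the members was -0.93, with 60 of 66 below 0, and that of all tested genes was 0.01. In 55 members both KO libraries lay below every C library, a pattern seen in 26.7% of tested genes. In a piece of tissue, fewer cells of a type and less RNA per cell cannot be told apart. With the scaling factors taken out, 7 members were called lower and 3 higher, beside 1.44% and 34% of all tested genes, with a member median of -0.42 beside the 0.48 of all genes. With 1 C library left out, 3.11% to 3.79% of all tested genes were called lower, against 7.01% with every library. In those fits 21 to 25 members were called. Leaving out KO 3 or KO 1 leaves KO with 1 library, and the member median was then -0.84 or -0.99.

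**Figure D1:**
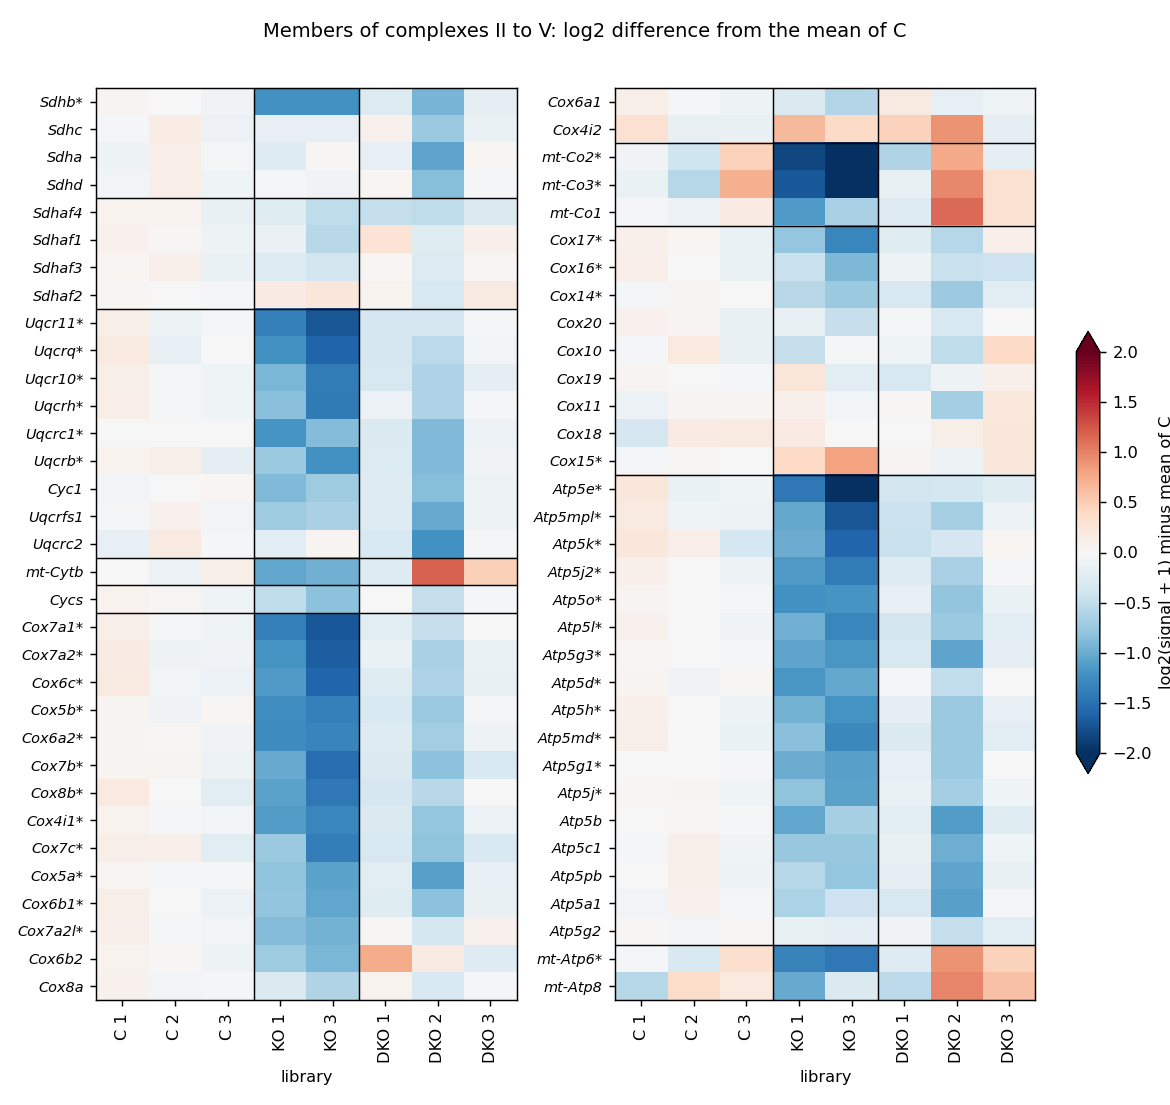
Log2(signal + 1) of each of the 66 members (lines of cells, ordered by complex and role) in each of the 8 libraries (columns), as the difference from the mean of the 3 C libraries; blue is lower and red higher, colours stop at 2 in each direction, and an asterisk marks the 38 members that passed the test in KO against C. The 2 KO columns are blue for most members of complexes III, IV and V, DKO 1 and DKO 3 are pale, and DKO 2 is blue for nuclear members and red for mitochondrially encoded ones.

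Among complex II members, 1 of 4 subunits fell in KO and 0 of 4 assembly factors passed the test. Sdhb (ENSMUSG00000009863, chromosome 4, 140961203 to 140979193, GRCm38) encodes the iron-sulfur subunit that carries electrons through the complex. Its signal was 1096, 1056 and 1002 in C, 453 and 453 in KO and 873, 553 and 923 in DKO. Both KO libraries were below every C library, and Sdhb fell by 1.21 on the log2 scale (SE 0.24, limma adjusted p = 0.008). Sdha, the flavoprotein that oxidises succinate, was at 569, 669 and 591 in C, 510.5 and 617 in KO and 540.5, 291 and 622 in DKO. The KO libraries overlapped C for Sdha, and DKO 2 was the lowest of the 8. The difference between KO and C for Sdha was -0.12 on the log2 scale (SE 0.29, limma adjusted p = 0.83). Of the membrane anchors that bind ubiquinone, Sdhc was at 309.7, 349 and 289 in C, 281 and 281 in KO and 333, 187 and 287 in DKO, with a log2 fold change of -0.16 (SE 0.23, limma adjusted p = 0.687). The other anchor, Sdhd, was at 286, 326 and 278 in C, 287 and 283 in KO and 305, 164 and 291 in DKO, with a log2 fold change of -0.06 (SE 0.25, limma adjusted p = 0.909), and its KO values lay inside the C range. Sdhaf1 and Sdhaf3, which help to build the iron-sulfur subunit, and Sdhaf2 and Sdhaf4, which serve the flavoprotein, had log2 fold changes of -0.34, -0.32, 0.19 and -0.38, none past the threshold (limma adjusted p 0.152 to 0.494).

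In complex III, 6 of 9 nuclear-encoded subunits fell in KO, with a median log2 fold change of -1.02 over the 9. The largest change was in Uqcr11 (ENSMUSG00000020163, chromosome 10, 80402997 to 80406830), one of the smallest subunits. Its signal was 911, 777 and 825 in C, 325 and 256 in KO and 665, 661 and 816 in DKO. Both KO values were below all C and DKO values, and Uqcr11 fell by 1.53 on the log2 scale (SE 0.21, limma adjusted p = 0.00114). Uqcrq, a small subunit next to cytochrome b, fell by 1.41 on the log2 scale (SE 0.24, limma adjusted p = 0.00378), from 1603, 1272 and 1410.4 in C to 613 and 468 in KO. Uqcr10, Uqcrh and Uqcrb, also small accessory or hinge subunits, fell by 1.15, 1.13 and 0.98 (limma adjusted p 0.00486 to 0.0206). The core subunits did not move together. Uqcrc1 fell by 1.02 on the log2 scale (SE 0.27, limma adjusted p = 0.0276), from 1923, 1950.4 and 1928 to 857 and 1056. Its partner in the core, Uqcrc2, was at 345, 439 and 379.9 in C, 331 and 401 in KO and 311, 166 and 379 in DKO, with a log2 fold change of -0.08 (SE 0.29, limma adjusted p = 0.883). Both electron-carrying nuclear subunits were below every C library in KO without passing: the Rieske protein Uqcrfs1 at 513 and 537 against 821, 890.3 and 812 (log2 fold change -0.68, limma adjusted p = 0.106) and cytochrome c1 (Cyc1) at 631 and 715 against 1126, 1173 and 1206 (-0.80, limma adjusted p = 0.0534). Cycs, the mobile carrier between complexes III and IV, was at 497, 482 and 447 in C, 334 and 269.7 in KO and 472, 339 and 463 in DKO, with a log2 fold change of -0.66 (SE 0.21, limma adjusted p = 0.0531).

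In complex IV, 12 of 16 nuclear-encoded subunits fell in KO and the median over the 16 was -1.14. Several mammalian complex IV subunits exist as a heart and muscle isoform and a widely expressed isoform, and both were measured. Cox7a1 (ENSMUSG00000074218, chromosome 7, 30184144 to 30186078), the heart isoform of subunit VIIa, had a signal of 742, 666 and 645 in C, 264 and 211 in KO and 590.1, 498 and 689.6 in DKO. It fell by 1.53 on the log2 scale (SE 0.21, limma adjusted p = 0.00118), and every KO value was below every C and DKO value. Its widely expressed counterpart Cox7a2 fell by 1.42 on the log2 scale (SE 0.22, limma adjusted p = 0.00249), from 591, 494 and 506 in C to 231 and 168 in KO. For subunit VIa the heart isoform Cox6a2 fell by 1.28 on the log2 scale (SE 0.27, limma adjusted p = 0.0097), from 2952, 2871 and 2695 to 1190.4 and 1139. The widely expressed Cox6a1 was at 142, 128 and 122 in C and 107 and 86.9 in KO, with a log2 fold change of -0.43 (SE 0.17, limma adjusted p = 0.118). For subunit VIII the muscle isoform Cox8b fell by 1.25 on the log2 scale (SE 0.22, limma adjusted p = 0.0045), from 678, 593 and 512 to 281 and 219, whereas Cox8a was at 174, 159 and 161 and 135 and 109, with a log2 fold change of -0.44 (SE 0.18, limma adjusted p = 0.119). Cox4i1, the main form of subunit IV, which binds ATP to tune the enzyme, fell by 1.21 on the log2 scale (SE 0.28, limma adjusted p = 0.014), from 2929.6, 2725 and 2679 to 1276 and 1127. Cox4i2, the form known to be induced by low oxygen, was the only nuclear subunit with a positive difference, at 12.7, 8.95 and 8.99 in C, 16.3 and 13.4 in KO and 14.2, 19.7 and 8.79 in DKO, with KO above C, and it did not pass (0.51 on the log2 scale, SE 0.27, limma adjusted p = 0.241). Cox4i2 was called higher with the length and GC trend removed and with the scaling factors taken out. Cox6b2, the testis form of subunit VIb, was at 2.11, 2.02 and 1.76 in C, 0.807 and 0.572 in KO and 3.93, 2.31 and 1.47 in DKO, with a log2 fold change of -0.81 (SE 0.28, limma adjusted p = 0.0705). The remaining subunits Cox5a, Cox5b, Cox6b1, Cox6c, Cox7b, Cox7c and the supercomplex factor Cox7a2l fell by 0.90 to 1.36 (limma adjusted p 0.00434 to 0.0404).

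**Figure D2:**
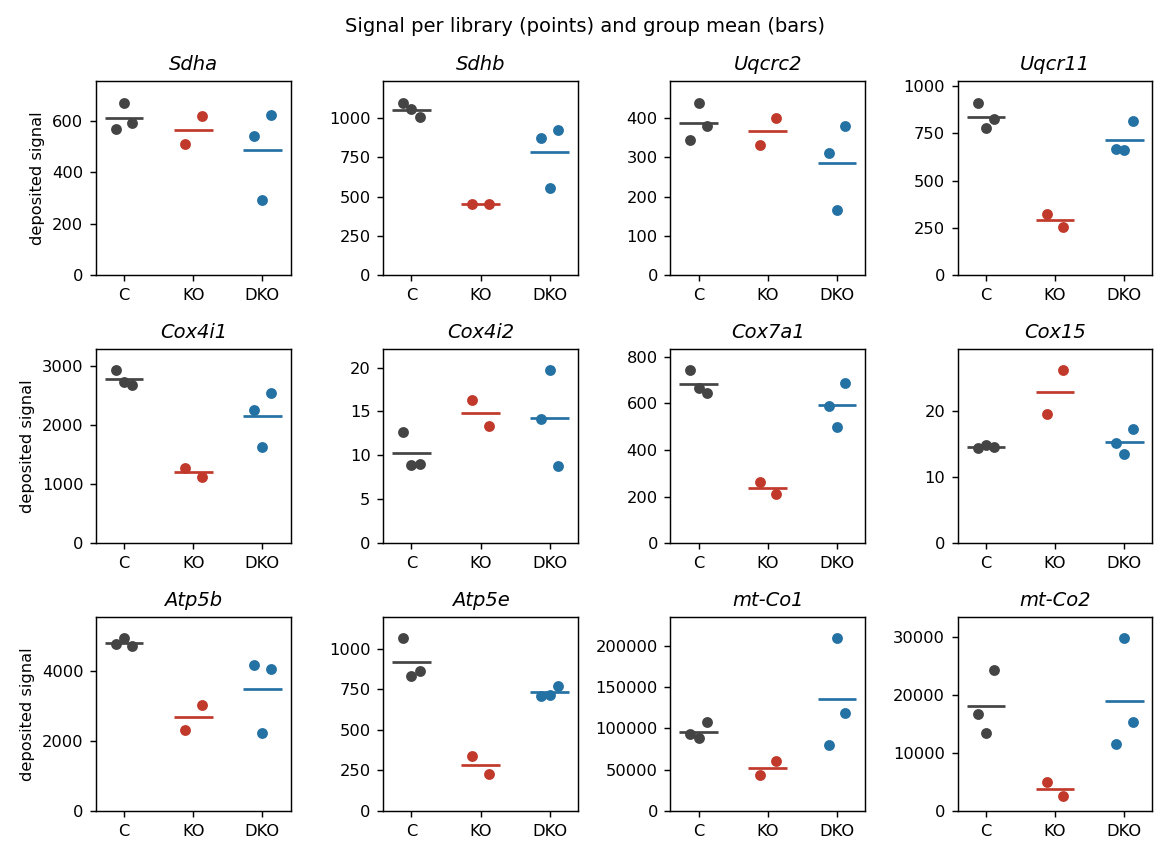
Deposited signal (linear axis from 0) of 12 members in each library (points), with the group mean as a bar, for C (3 libraries), KO (2) and DKO (3). Sdhb, Uqcr11, Cox4i1, Cox7a1, Atp5e and mt-Co2 were lowest in both KO libraries, Sdha and Uqcrc2 overlapped between KO and C, Cox15 was highest in KO, and DKO 2 had the highest mt-Co1 and mt-Co2.

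Isoform ratios within a library, computed on signal per kilobase of transcript, do not depend on the scaling factors. Cox6a2 over Cox6a1 was 17.4, 18.8 and 18.5 in C, 9.36 and 11.0 in KO and 13.5, 12.7 and 18.2 in DKO. Cox8b over Cox8a was 5.94, 5.71 and 4.85 in C, 3.18 and 3.09 in KO and 4.10, 4.62 and 5.53 in DKO. For both pairs the heart or muscle isoform prevailed everywhere, and both KO ratios were below all C and DKO ratios. Cox8b is shorter than Cox8a (360 and 550 bases), and Cox6a2 is longer than Cox6a1 (680 and 571). Division by length does not remove a trend with length that differs between libraries, and ratios without such a trend were not formed. Cox7a1 over Cox7a2 was 2.10, 2.26 and 2.14 in C, 1.92 and 2.11 in KO and 2.06, 2.47 and 2.39 in DKO, so here the groups overlapped. Cox4i1 over Cox4i2 was 225, 297 and 291 in C, 76.3 and 82.1 in KO and 156, 80.9 and 284 in DKO. The Cox4i1 ratio of DKO 2 was as low as in KO and that of DKO 3 was within the C range. In other pairs KO was above C. Cox6b1 over Cox6b2, with Cox6b2 at a very low signal, was 361, 343 and 368 in C, 502 and 596 in KO and 150, 171 and 428 in DKO. Atp5g1 over Atp5g3, of complex V, was 1.24, 1.25 and 1.24 in C, 1.30 and 1.31 in KO and 1.39, 1.55 and 1.41 in DKO. With 3 and 2 libraries an exact two-sided permutation test cannot go below p = 0.2, and with 3 and 3 below p = 0.1, so no ratio was tested. The skeletal muscle markers, which were lower in KO and DKO than in C, belong to a tissue that also uses these muscle isoforms, and their part in the ratios was not tested.

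**Figure D3:**
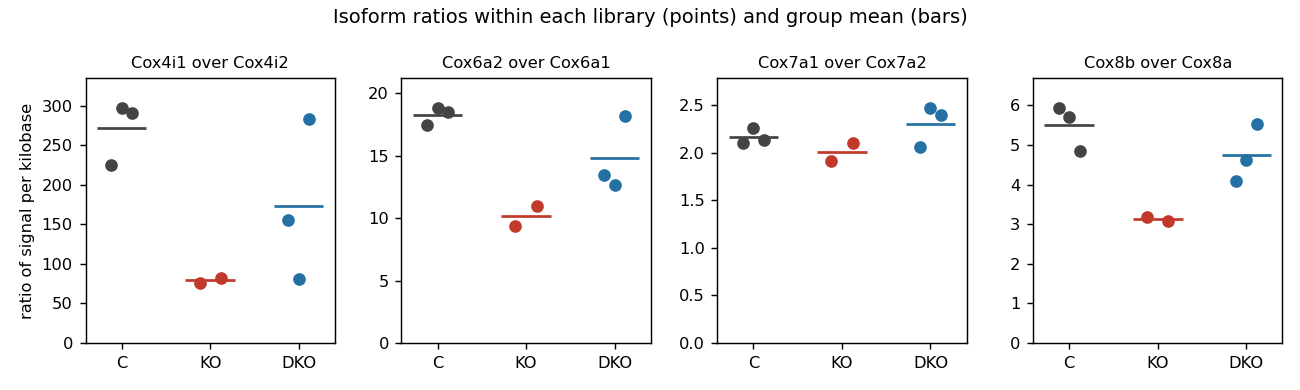
Ratio of signal per kilobase between 2 isoforms of a complex IV subunit (linear axis from 0) in each library (points), with the group mean as a bar, for subunits IV, VIa, VIIa and VIII. The 2 KO libraries had the lowest Cox6a2 over Cox6a1 and Cox8b over Cox8a ratios, and Cox7a1 over Cox7a2 overlapped between groups.

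Of the factors that build complex IV, 3 of 9 fell and 1 rose, and the median was -0.25. Cox17, which brings copper to the enzyme, fell by 1.04 on the log2 scale (SE 0.22, limma adjusted p = 0.00982), from 135, 128 and 114 in C to 73.1 and 50.1 in KO. Cox14 and Cox16, which act on the newly made core subunits, fell by 0.65 and 0.68 (limma adjusted p = 0.0333 and 0.0344). Cox15 (ENSMUSG00000040018, chromosome 19, 43733254 to 43753000), an enzyme of heme A synthesis, was at 14.4, 14.9 and 14.5 in C, 19.5 and 26.2 in KO and 15.1, 13.5 and 17.3 in DKO. Both KO libraries were above all others, and Cox15 rose by 0.60 on the log2 scale (SE 0.17, limma adjusted p = 0.0397). Over all tested genes 6.9% were called higher. Cox10, which makes the step before Cox15, was at 49.4, 58.2 and 45.6 in C and 36.6 and 49.4 in KO, with a log2 fold change of -0.25 (SE 0.24, limma adjusted p = 0.528). Cox11, Cox18, Cox19 and Cox20 had log2 fold changes of 0.03, 0.08, 0.01 and -0.31, and none passed. Over complexes II and IV, 3 of 13 assembly factors fell, with a median of -0.31, and 13 of the 20 nuclear subunits fell, with a median of -1.0. The difference between the classes was not tested, and their median transcript lengths were 2007 and 669.5 bases.

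In complex V, all 17 nuclear-encoded subunits were lower in both KO libraries than in every C library, and 12 of 17 passed the test, with a median of -1.07. Atp5e (ENSMUSG00000016252, chromosome 2, 174461072 to 174464105), the epsilon subunit at the foot of the central stalk, changed most among nuclear members. Its signal was 1064, 831 and 860.1 in C, 338 and 227 in KO and 711, 716 and 773 in DKO. Both KO values were below all C and DKO values, and Atp5e fell by 1.72 on the log2 scale (SE 0.23, limma adjusted p = 0.00101). Its stalk neighbour Atp5d (delta) fell by 1.09 on the log2 scale (SE 0.23, limma adjusted p = 0.00951), whereas the third stalk subunit Atp5c1 (gamma) was at 936, 1048 and 913 in C and 570.1 and 572 in KO with a log2 fold change of -0.75 (SE 0.27, limma adjusted p = 0.0848). Neither subunit of the catalytic head passed the test, and both were below every C library in KO. Atp5b, the beta subunit that makes ATP, was at 4778, 4951 and 4729 in C, 2332 and 3040.1 in KO and 4173, 2230.4 and 4082 in DKO, with a log2 fold change of -0.86 (SE 0.35, limma adjusted p = 0.127). Atp5a1, the alpha subunit, was at 3326, 3666 and 3345 in C, 2210.2 and 2594 in KO and 2754, 1628 and 3348 in DKO, with a log2 fold change of -0.52 (SE 0.34, limma adjusted p = 0.332). In the proton-driven rotor, 3 genes encode the same mature c subunit and differ in level. Atp5g1 was at 1914, 1913 and 1859.6 in C and 953 and 894 in KO and fell by 1.04 on the log2 scale (SE 0.27, limma adjusted p = 0.0234). Atp5g3 was at 1849, 1828 and 1804 and 877 and 818 and fell by 1.11 on the log2 scale (SE 0.28, limma adjusted p = 0.0219). Atp5g2, the scarcest, was at 14.8, 14.0 and 15.0 and 13.0 and 12.8, with a log2 fold change of -0.16 (SE 0.17, limma adjusted p = 0.555). Per kilobase Atp5g1 was 159, 167 and 152 times Atp5g2 in C and 89.6 and 85.6 times in KO.

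Subunits of the stator, which holds the head still, and of the membrane part fell as well. Atp5o, the protein that ties the stator to the head, fell by 1.19 on the log2 scale (SE 0.25, limma adjusted p = 0.00874). Atp5h and Atp5j, stator subunits d and F6, fell by 1.07 and 0.93, whereas the b subunit Atp5pb was at 832, 913 and 783 in C and 566 and 490.2 in KO and did not pass (-0.67, limma adjusted p = 0.121). The small membrane subunits Atp5j2 (f), Atp5k (e) and Atp5l (g), and the accessory proteins Atp5md and Atp5mpl, fell by 1.06 to 1.36 (limma adjusted p 0.0033 to 0.00726). The e and g subunits are known for joining ATP synthase into dimers at the edges of cristae. All 5 of these small subunits were among the 12 complex V genes that passed.

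All 6 mitochondrially encoded members were measured, and 3 of 6 fell in KO. These transcripts come from 1 strand of the circular mitochondrial genome and are cut from long precursors. The poly(A) selection used here captures them through their short tails. mt-Co2 (ENSMUSG00000064354, chromosome M, 7013 to 7696), the copper-bearing subunit that receives electrons from cytochrome c, was at 16703, 13335 and 24212 in C, 4966 and 2528 in KO and 11501, 29734 and 15372 in DKO. It fell by 2.31 on the log2 scale (SE 0.54, limma adjusted p = 0.0163). mt-Co3, a structural core subunit, was at 11978, 8871 and 21606 in C, 4090.0 and 2142 in KO and 11919, 25744 and 16298 in DKO and fell by 2.16 on the log2 scale (SE 0.53, limma adjusted p = 0.0201). mt-Atp6, the proton channel of complex V, was at 5225, 4269 and 6639 in C, 2092 and 1967 in KO and 4428, 9912 and 7259.9 in DKO and fell by 1.38 on the log2 scale (SE 0.39, limma adjusted p = 0.0369). In these 3 genes both KO libraries lay below every other library. mt-Co1, the catalytic subunit with the oxygen-binding heme, was at 92633, 87676 and 107088 in C, 43628 and 60597 in KO and 79596, 208836 and 118402 in DKO, with a log2 fold change of -0.89 (SE 0.88, limma adjusted p = 0.543). mt-Cytb, the complex III subunit, was at 35729, 32893 and 38897 in C, 17357 and 18405 in KO and 29989.5, 80707 and 49549.6 in DKO, with a log2 fold change of -1.0 (SE 0.65, limma adjusted p = 0.337). Both were below C in each KO library, but their standard errors were 0.65 and 0.88, and DKO 2 stood far above DKO 1 for both. mt-Atp8, whose end overlaps the start of mt-Atp6, was listed at only 6.09, 12.6 and 11.1 in C, 4.23 and 7.64 in KO and 6.32, 19.8 and 14.7 in DKO, and how reads were split between these overlapping genes is uncertain.

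The mitochondrial transcripts did not keep their proportions. mt-Co2 stood at 18.0, 15.2 and 22.6% of mt-Co1 in C, 11.4 and 4.17% in KO and 14.4, 14.2 and 13.0% in DKO. mt-Co3 stood at 12.9, 10.1 and 20.2% of mt-Co1 in C, 9.37 and 3.53% in KO and 15.0, 12.3 and 13.8% in DKO. For both genes KO 3 was far below all others, and KO 1 was below every C library, for mt-Co3 by less than 1 percentage point. mt-Cytb stood at 38.6, 37.5 and 36.3% of mt-Co1 in C and 39.8 and 30.4% in KO, with KO 1 above and KO 3 below the C range. These ratios are of signal, not per length, and serve only to compare libraries.

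Counted together, the 60 nuclear members took 4.35, 4.41 and 4.07% of reads in C, 3.23 and 3.12% in KO and 4.09, 1.85 and 3.65% in DKO. Their mean share was 4.28% ± 0.182 (SD, n = 3) in C, 3.18% ± 0.0817 (SD, n = 2) in KO and 3.20% ± 1.18 (SD, n = 3) in DKO. Both KO libraries were below all C libraries, DKO 1 was within the C range, DKO 3 was below it, and DKO 2 was the lowest of all. Of reads from nuclear genes alone the share was 5.77, 5.74 and 5.73% in C, 3.86 and 3.77% in KO and 5.30, 3.18 and 5.21% in DKO. The 6 mitochondrially encoded members took 15.0, 14.2 and 18.5% of reads in C, 9.90 and 11.7% in KO and 14.5, 25.0 and 17.9% in DKO. DKO 2 was thus at opposite ends for the 2 genomes: its mitochondrial members had 13.5 reads for each read of a nuclear member, against 3.06 to 4.91 in the other 7 libraries. For each 100 units of cardiomyocyte marker signal, the nuclear members summed to 62.8, 58.5 and 58.3 units in C, 53.4 and 45.7 in KO and 61.2, 59.5 and 57.2 in DKO. Measured against this sum of muscle genes, the KO libraries remained the lowest and DKO 2 was level with C. The sum includes Actc1, which was above every C library in KO. The KO ratios therefore depend on the choice of markers, and a sum without Actc1 was not formed. No score over the members was tested.

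**Figure D4:**
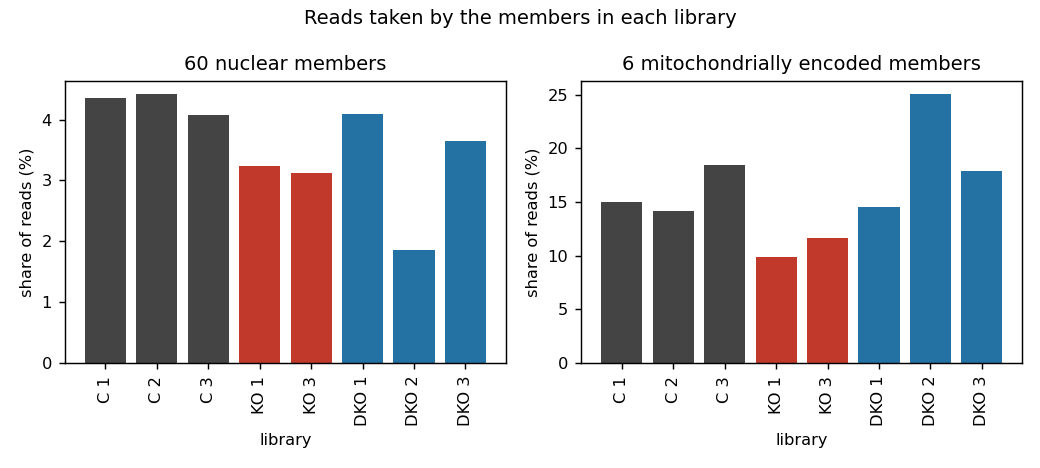
Share of all reads in percent (linear axis from 0) taken by the 60 nuclear members (left) and by the 6 mitochondrially encoded members (right) in each library (bars, coloured by group). The nuclear share was 4.07% to 4.41% in C and 3.12% to 3.23% in KO, and DKO 2 had the lowest nuclear share (1.85%) and the highest mitochondrial share (25.0%).

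Levels per kilobase of transcript allow members to be ranked within C. The mitochondrially encoded mt-Co1 led at 62006 ± 6528 (SD, n = 3) units per kilobase, ahead of mt-Cytb at 31328 ± 2626 and mt-Co2 at 26437 ± 8141. mt-Cytb and mt-Co2 did not differ beyond their spread. Among nuclear members Cox6a2 was highest at 4176 ± 194, followed by Cox4i1 at 3729 ± 179, Atp5g1 at 3181 ± 52.4, Atp5g3 at 2559 ± 31.9 and Atp5b at 2515 ± 60.9. The last pair, Atp5g3 and Atp5b, lay within their spread. The same 5 genes stood at 1713 ± 53.5, 1613 ± 142, 1550.1 ± 69.9, 1187 ± 58.6 and 1402 ± 261 in KO (SD, n = 2). At the other end Sdhaf3 was at 1.38 ± 0.127, Cox15 at 3.04 ± 0.0610 and Cox6b2 at 3.55 ± 0.329, so that subunits of 1 enzyme and the factors that build it lay several orders of magnitude apart.

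Transcript length moved with the change in KO. Members are short: their median transcript was 743.5 bases, against 2838 for all tested genes. Of nuclear members under 600 bases, 15 of 19 fell, with a median log2 fold change of -1.13. Of those with 600 to under 1000 bases, 13 of 16 fell, with a median of -1.08. Of those with 1000 bases or more, 6 of 25 fell and 1 rose, with a median of -0.52. Across the 60 nuclear members, which share the same libraries and scaling, Spearman's rho between length and the KO change was 0.60. Between length and the DKO change against C it was 0.08, and between length and the DKO change against KO it was -0.62. In the 46 nuclear subunits alone the same values were 0.51, -0.29 and -0.55. Between GC content and the DKO change against C, rho was 0.23 in the 60 members and 0.53 in the 46 subunits. In KO against C all tested genes showed the same direction with length as the members, at a smaller size. Under 600 bases, 136 of 439 genes were called lower and 7 higher (median -0.46). With 600 to under 1000 bases, 229 of 791 were called lower and 20 higher (median -0.42). The 12303 longer genes had a median of 0.04. Once the trend with length and GC content was removed from each library, 22 members were called lower and 1 higher, beside 5.01% and 6.36% of all tested genes, the member median was -0.60, and 21 of the 38 calls were kept. Cox7a1, Cox7a2, Uqcr11, Atp5e, Sdhb, Cox6a2, mt-Co2 and mt-Co3 were among those still called. Cox4i2 (727 bases), Cox6a1 (571), Cox8a (550) and Atp5g2 (731) did not pass at lengths at which most members fell. Of these, Cox6a1 and Cox8a had log2 fold changes of -0.43 and -0.44, near the -0.46 median of all tested genes under 600 bases. Sdhb (1142) fell where Sdhd (1231) did not pass.

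**Figure D5:**
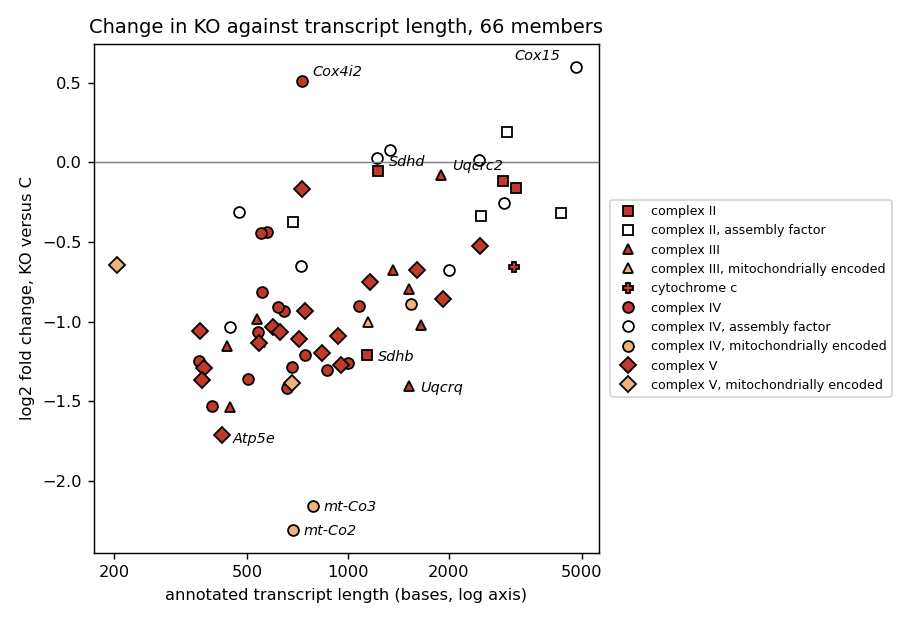
Log2 fold change of KO against C (vertical axis) against annotated transcript length in bases (horizontal log axis) for the 66 members, with 1 mark per gene; shapes give the complex, white marks assembly factors and orange marks mitochondrially encoded genes. Short subunits lie mostly between -1 and -1.7, longer members spread up to Cox15 at 0.60, and mt-Co2 and mt-Co3 are lowest.

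Since so many nuclear members were lower together, their promoters were read for motifs of factors known to drive respiratory genes: NRF1, the ETS factor GABPA, the estrogen-related receptors (ERR) and YY1, with the core of the HIF response element. RefSeq promoters (GRCm38.p6, 250 bases before to 50 after the start) were matched for 47 of 60 nuclear members and 10404 tested genes, and both strands were searched. Windows of 50 bases from 5 members show 1 match each, printed 5′ to 3′ on the gene's strand with the match in capitals. Atp5e (chr2:174464175-174464224, minus strand) and Uqcr11 (chr10:80406859-80406908, minus strand), which fell in KO, carry the ETS letters. Atp5g3 (chr2:73911349-73911398, minus strand) carries the ERR letters, Atp5l (chr9:44920943-44920992, minus strand) the NRF1 core, and Cox20 (chr1:178319057-178319106, plus strand), which did not pass in KO, the YY1 letters. The Atp5l window also holds the ETS letters, left in lower case, and no match overlaps another.
Atp5e: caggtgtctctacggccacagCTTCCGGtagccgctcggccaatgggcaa
Uqcr11: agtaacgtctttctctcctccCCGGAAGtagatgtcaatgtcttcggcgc
Atp5g3: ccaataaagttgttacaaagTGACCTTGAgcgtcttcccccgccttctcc
Atp5l: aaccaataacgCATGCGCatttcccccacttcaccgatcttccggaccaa
Cox20: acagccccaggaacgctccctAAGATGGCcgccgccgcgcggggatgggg
The ETS letters CCGGAAG stood in 21 of 47 member promoters (44.7%) and 19.5% of all tested promoters. With assembly factors left out they stood in 13 of 36 member promoters (36.1%). The full NRF1 palindrome GCGCATGCGC stood in 4 members (8.51%) and 2.23% of all, and its core GCGCATG, which the palindrome contains, in 9 members (19.1%) and 7.70% of all. The ERR letters TCAAGGTCA stood in 2 members (4.26%; Atp5g3 and Sdhd) and 0.327% of all. YY1's AAGATGGC stood in 5 members (10.6%) and 5.12% of all, and the HIF core ACGTG in 14 members (29.8%) and 29.0% of all. Members that fell and members that did not pass shared these letters: NRF1 palindromes stood in Uqcrc1 and Atp5k, which fell, and in Cox6a1 and Atp5g2, which did not pass. The ETS letters stood in Cox6a1 and Cox8a, which did not pass, and were absent in Cox7a1 and Cox7a2, which fell. A match describes letters in a window, not a bound site, and these shares were not tested.

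In DKO ventricle no member passed the test against C, and most members lay below C. In limma's test 0 of 66 members passed against C, where 0.155% of all tested genes did (0.0812% lower and 0.0738% higher), and edgeR and DESeq2 on the recovered reads also called 0. At an unadjusted p under 0.05, 6 members were lower and 0 higher, against 3.31% and 5.19% of tested genes. The median log2 fold change was -0.30 over the 66 members and 0.01 over all genes, and 56 of 66 were below 0. In 26 members every DKO library lay below every C library (39.4%), a pattern of 7.25% of tested genes, and in 0 members was every DKO library above C (6.5% of tested genes). DKO 2 weighs on these values: the median difference of the nuclear subunits from the C mean was -0.74 in DKO 2, -0.25 in DKO 1 and -0.11 in DKO 3. Without DKO 2 the member median was -0.15 and 0 members passed. With DKO 1 and DKO 3 alone, 26 of 66 members were below every C library, beside 12.85% of tested genes. KO and DKO were both set against the same C libraries.

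Single members show the pattern. The smallest p belonged to Sdhaf4, at 21.2, 21.1 and 18.1 in C and 14.1, 13.8 and 16.2 in DKO, with a log2 fold change of -0.43 (SE 0.15, limma adjusted p = 0.517). Cox14 was next, at 165, 175 and 168 in C and 137, 102 and 144 in DKO, with a log2 fold change of -0.42 (SE 0.16, limma adjusted p = 0.576). For both genes all DKO libraries lay below C. Atp5e had a log2 fold change of -0.32 (SE 0.20, limma adjusted p = 0.678) and Cox7a1 a log2 fold change of -0.22 (SE 0.19, limma adjusted p = 0.752), and in DKO 3 Cox7a1 reached the C range. The mitochondrially encoded members went the other way in 5 of 6 genes, with mt-Cytb at a log2 fold change of 0.46 (SE 0.58, limma adjusted p = 0.833) and mt-Co1 at a log2 fold change of 0.39 (SE 0.79, limma adjusted p = 0.909). For all 6 genes DKO 2 was above every C library. DKO 1 was below every C library for mt-Co1, mt-Co2 and mt-Cytb and within the C range for mt-Co3, mt-Atp6 and mt-Atp8. All 4 complex II subunits had negative differences of -0.27 to -0.46, and in DKO 2 each of Sdha, Sdhc and Sdhd was the lowest of all libraries.

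Against KO, DKO ventricle had higher levels of subunits of complexes III, IV and V. This comparison uses the same 2 KO libraries as that of KO against C, so a value that is low in KO by chance enters both. In limma's test 23 of 66 members were higher in DKO than in KO and 0 lower, beside 6.08% and 5.73% of all tested genes. These were 4 subunits of complex III, 9 of complex IV and 6 of complex V, the copper chaperone Cox17 and 3 mitochondrially encoded genes. No complex II member was among them. The complex IV subunits included the testis form Cox6b2 at a very low signal (0.807 and 0.572 in KO and 3.93, 2.31 and 1.47 in DKO). The member median was 0.61 and that of all genes 0.01. In 35 members every DKO library was above both KO libraries, a pattern of 20.5% of tested genes. With the scaling factors taken out, 2 members were higher and 8 lower, beside 1.52% and 44.3% of all tested genes, with a member median of -0.05 beside -0.57 for all genes, so the split between directions depends on the scaling. Without any 1 of the C libraries 15 members were higher, and without DKO 2 41. Leaving out KO 3 or KO 1 leaves KO with 1 library, and the member median was then 0.52 or 0.76. With only the KO and DKO libraries in the model 6 were higher, beside 2.59% of all tested genes. Of all tested genes 4.16% to 4.5% were called higher without 1 of the C libraries, and 8.02% without DKO 2. Once the trend with length and GC content was removed 10 members were higher and 0 lower, beside 4.6% and 5.74% of all tested genes.

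The largest differences were in mitochondrially encoded genes. mt-Co3 was higher in DKO by 2.53 on the log2 scale (SE 0.53, limma adjusted p = 0.0116) and mt-Co2 by 2.29 on the log2 scale (SE 0.54, limma adjusted p = 0.0195). mt-Atp6 was higher by 1.75 on the log2 scale (SE 0.39, limma adjusted p = 0.0155). Each of these had its highest value in DKO 2, and DKO 1 and DKO 3 were also above both KO libraries. Among nuclear members, Atp5e was higher by 1.40 on the log2 scale (SE 0.23, limma adjusted p = 0.00342), Cox7a1 by 1.31 on the log2 scale (SE 0.21, limma adjusted p = 0.00324) and Uqcr11 by 1.30 on the log2 scale (SE 0.21, limma adjusted p = 0.00334). Cox7a2 and Uqcrq were higher by 1.11 and 1.10 (limma adjusted p = 0.00945 and 0.0144). In Atp5e, Cox7a1 and Uqcr11 all 3 DKO libraries, DKO 2 included, stood above both KO libraries. Sdhb had a log2 fold change of 0.75 (SE 0.24, limma adjusted p = 0.0673), with DKO 2 nearest to KO. Against the direction of most members, Cox15 had a log2 fold change of -0.54 (SE 0.17, limma adjusted p = 0.066) and Uqcrc2 a log2 fold change of -0.43 (SE 0.29, limma adjusted p = 0.363).

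Genes that serve complexes II to V without carrying their names were read from a list of 39, of which 35 were in the table. In KO against C, 7 fell and 2 rose, beside 7.01% and 6.9% of all tested genes. Ndufa4, a complex IV subunit despite its name, was at 1040.5, 957 and 941 in C, 463 and 336 in KO and 763, 501 and 809 in DKO and fell by 1.31 on the log2 scale (SE 0.25, limma adjusted p = 0.00629). Its HIF-responsive paralog Ndufa4l2 was at 25.7, 22.2 and 19.1 in C, 70.8 and 61.6 in KO and 30.3, 30.6 and 20.6 in DKO. It rose in KO by 1.53 on the log2 scale (SE 0.20, limma adjusted p = 0.00101) and was lower in DKO than in KO by 1.27 on the log2 scale (SE 0.20, limma adjusted p = 0.0031), so that Ndufa4 and Ndufa4l2 moved in opposite directions in KO. Uqcc2 and Uqcc3, which help to make complex III, fell by 1.07 and 0.88, and Cmc2 and Smim20, small complex IV factors, by 0.87 and 0.87 (limma adjusted p 0.00255 to 0.0141). Slirp, which steadies mitochondrial messenger RNAs, fell by 0.90 (limma adjusted p = 0.0172). Taco1, needed to translate mt-Co1, was at 4.62, 5.88 and 6.02 in C and 9.55 and 18.4 in KO and rose by 1.14 on the log2 scale (SE 0.33, limma adjusted p = 0.0367). Lonp1, the protease known to degrade Cox4i1, was at 135, 144 and 147 in C and 114 and 130.1 in KO, with a log2 fold change of -0.22 (SE 0.20, limma adjusted p = 0.505). In DKO against C 0 of 35 passed, and against KO 4 were higher and 1 lower, beside 6.08% and 5.73% of all tested genes.

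Of 24 regulators of mitochondrial biogenesis and transcription, 1 fell and 2 rose in KO, beside 7.01% and 6.9% of all tested genes. Ppargc1a, the coactivator PGC-1α, was at 27.2, 32.2 and 27.8 in C and 22.6 and 33.2 in KO, and it did not pass, nor did Nrf1, Gabpa, Esrra, Yy1 or Tfam, which encodes the factor that packs and transcribes mitochondrial DNA. Of these, Esrra was at 166, 188 and 180 in C, 129 and 145 in KO and 182, 172 and 197 in DKO. Both KO values were below all others (log2 fold change -0.37, SE 0.16, limma adjusted p = 0.143). Nrf1 was at 10.7, 8.29 and 9.05 in C and 11.9 and 11.5 in KO. Tfam was at 20.3, 21.2 and 20.7 in C and 25.1 and 22.5 in KO. Both were above every C library, with log2 fold changes of 0.30 and 0.19 (limma adjusted p = 0.301 and 0.46). Over all tested genes 26.7% had both KO libraries below every C library, and 27.5% above. Pprc1, a coactivator related to PGC-1α, rose by 0.66 on the log2 scale (SE 0.17, limma adjusted p = 0.0216), and Ppara, a nuclear receptor for fatty acid use, rose by 1.27 on the log2 scale (SE 0.36, limma adjusted p = 0.0349) at a low signal of 2.70 and 7.99 in KO. Mterf4, which serves mitochondrial ribosome assembly, fell by 0.76 on the log2 scale (SE 0.19, limma adjusted p = 0.023) and was higher in DKO than in KO by 1.09 on the log2 scale (SE 0.19, limma adjusted p = 0.00509). In DKO against C 0 of these 24 genes passed.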

How the data were processed

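Per the labels' protocols, messenger RNA of ventricular heart was captured by its poly(A) tail, fragmented and sequenced on an Illumina NovaSeq. RSEM 1.3.1, cutadapt, limma and the build GRCm38 appear in the submitters' processing notes. For the aligner, annotation and strandedness nothing was found (not given in the sources used here), and a KO library number 2 was not analysed here. The deposited signal values of 13677 genes in 8 libraries were read, from the values, as whole reads plus 0.5, relative to an effective library size on the scale of CPM (100% of values whole within 0.001 reads), and the factors behind that size matched edgeR's TMM factors. Replicates differed by more than counting noise. At these depths 3 reads, the limit a count of 0 allows, are a signal of 0.104 to 0.283, which covers counting error only.

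The 13544 genes that reached a signal of 1 in 2 or more libraries entered limma 3.58.1 (R 4.3.3, trend) as log2(signal + 1), with 3 group means over 8 libraries, 5 residual degrees of freedom and Benjamini-Hochberg adjustment over all tested genes at 0.05, after tests on simulated data. Fold changes are on that scale and come out too small for low genes. The model was planned for normalised values, and edgeR 4.0.16 (quasi-likelihood) and DESeq2 1.42.0 were run on the recovered reads as alternatives, calling 38 and 47 members in KO against C. Gene coordinates and lengths come from GENCODE M21 (GRCm38; 13666 identifiers matched), with the shortest RefSeq-matched principal transcript as the length. RSEM can split reads between close copies, so paralog levels are uncertain. Other alternatives were pseudocounts, filters, scalings, a length and GC correction, a replicate block and leaving out each library. Length by the longest transcript and removal of the scaling factors were added after seeing the data.

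The members and gene lists were chosen with earlier results of these data known. Named with values were all mitochondrially encoded members, the complex II subunits, the isoform pairs, up to 8 members per direction with the largest change past the threshold in each comparison, the 2 most against the main direction, the 2 with the smallest p where none passed, and up to 4 per list of other pathway genes. Further members are given by role.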

Additional observations from a re-analysis of the deposited data

How the results depend on the processing

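The number of members called in KO against C (38) stayed within 1.5 times under pseudocounts of 0.5 and 4, both other filters, scaling without mitochondrial transcripts, median centring, quantile normalisation, limma without the trend, only the KO and C libraries, edgeR (38) and DESeq2 (47). It was 23 with the length and GC trend removed by either length, and 10 with the scaling factors taken out. Leaving out 1 C or DKO library gave 21 to 46. With KO 3 or KO 1 left out, the 1 remaining KO library was assumed to vary like the other groups. The member median was then -0.84 or -0.99. The share of all tested genes called lower was 3.11% to 3.79% without 1 C library and 7.62% to 11.2% without 1 DKO library. Atp5e, Uqcr11, Cox7a1 and Cox7a2 were called under all 23 alternatives. In DKO against KO the 23 became 6 with only these groups, 10 without the scaling factors and 35 in DESeq2. Once the trend with length and GC was removed they became 10 and 14 (usual and longest transcript). Leaving out 1 C or DKO library gave 15 to 41. With KO 3 or KO 1 left out the member median was 0.52 or 0.76. Of all tested genes, 2.59% were called higher in DKO against KO with only these groups and 8.87% in DESeq2. Without 1 C or DKO library 4.16% to 8.02% were. In DKO against C 0 members were called under every alternative run. Of reads from nuclear genes alone, the nuclear members took 5.75% (C), 3.82% (KO) and 4.56% (DKO).

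Whether the labels' numbers pair the libraries could not be decided. Deviations of same-numbered libraries correlated at 0.19, -0.27 and 0.14 for C and DKO, and at 0.22 and 0.14 for C and KO. For DKO and KO the values were -0.012 and 0.10, and not every same-numbered pair exceeded 0.1. Differently numbered C and DKO libraries correlated at -0.36 to 0.21. The deviations of KO 1 and KO 3 mirror each other (0.22 and -0.22 with C 1), so their correlations are not separate values. With the number as a replicate block, 38 members were called in KO against C (36 of the 38 kept), 0 in DKO against C and 22 in DKO against KO, and Cox11 changed sign in KO against C, to -0.089.

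No member that passed changed sign in any alternative with a value for it. Sign changes of genes that had not passed follow, for all 66 members and Lonp1 (not a member) in KO against C and for the named genes in the DKO comparisons; the cause was not tested. In KO against C the log2 fold change with the length and GC trend removed was 0.13 for Sdhd, 0.021 for Sdhaf4, 0.051 for Cox6a1, 0.054 for Cox8a, -0.042 for Cox19, 0.18 for Cox20, 0.25 for Atp5g2 and 0.057 for mt-Atp8. With the longest transcript it was 0.19 for Sdhd, 0.13 for Sdhaf4, 0.14 for Cox6a1, 0.19 for Cox8a, -0.0030 for Cox19, 0.21 for Cox20, 0.32 for Atp5g2 and 0.44 for mt-Atp8. Under quantile normalisation it was 0.33 for Sdha, 0.12 for Sdhc, 0.23 for Sdhd, 0.24 for Uqcrc2, 0.10 for mt-Cytb, -0.012 for Cox11, 0.19 for Atp5a1 and 0.022 for Atp5b, and under median centring -0.018 for Cox11 and -0.033 for Cox19. Without the scaling factors it was 0.42 for Sdha, 0.38 for Sdhc, 0.48 for Sdhd, 0.19 for Sdhaf1, 0.14 for Sdhaf3, 0.14 for Sdhaf4, 0.46 for Uqcrc2, 0.10 for Cox6a1, 0.095 for Cox8a, 0.28 for Cox10, 0.21 for Cox20, 0.017 for Atp5a1, 0.34 for Atp5g2 and 0.32 for Lonp1. Over all 66 members, 24 changed sign without the scaling factors in DKO against KO, and 0 to 6 under every other alternative. In DKO against C 0 to 8 did, with the 8 when DKO 2 was left out. In DKO against C, mt-Co2 was at 0.068 and 0.071 with the trend removed by either length, 0.061 in edgeR and 0.031 in DESeq2. In DKO against KO, mt-Cytb was at -0.045 under quantile normalisation. Over the fits that left out 1 library the values ran as follows in KO against C: Sdha -0.25 to 0.020, Sdhd -0.10 to 0.014, Uqcrc2 -0.22 to 0.055, Cox11 -0.053 to 0.11, Cox18 -0.094 to 0.16, Cox19 -0.22 to 0.25. In DKO against C they ran as follows: mt-Co2 -0.40 to 0.29, Sdhd -0.44 to 0.0088. In DKO against KO they ran as follows: Cox4i2 -0.37 to 0.17. Depth limits mainly members at a signal below about 10, such as Cox6b2, Sdhaf3, Cox18 and mt-Atp8.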
